A study of Rattus norvegicus with 36 samples.

Results

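The nucleus accumbens transcriptomes of 6 cocaine-treated rats, taken as one group, were compared with those of 3 Saline rats. The 9 rats make up the whole series, and each was sequenced as 4 technical replicates, 36 libraries in all. The rats were assigned to these arms from the submitted labels and not from any measured value. All were Sprague-Dawley rats aged 8 weeks, with no sex named in the labels. The cocaine arm joins 3 CPPE rats, which expressed a preference for the compartment paired with the drug, and 3 nCPPE rats, which did not. The labels also call them dependent and non-dependent. Both cocaine groups were given 4 daily injections of cocaine, 15 days of withdrawal and 1 further injection of cocaine at 5 mg/kg, and place preference was measured straight afterwards for 18 min. The Saline rats had 4 injections of physiological serum, the same withdrawal and 1 further serum injection, followed by the same preference test. The series text further mentions an extinction phase of 12 days. The labels give the tissue as nucleus accumbens, although their extraction text also names the caudate putamen. RNA of a whole tissue piece was read, so fewer cells of a type and less RNA per cell cannot be told apart.

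The nucleus accumbens is the ventral part of the striatum. Most of its neurons are GABAergic spiny projection neurons that receive dopamine from the midbrain and glutamate from cortex, amygdala and hippocampus. Cocaine blocks the dopamine transporter, so that dopamine stays longer outside the cell, and repeated exposure is known to alter transcription in these neurons. Comparing cocaine with Saline rats asks what the injections left in the tissue whatever the animal's later preference. It cannot part the conditioning injections from the last one, since every cocaine rat had both.

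The files give Ensembl identifiers without gene names, and the reference table paired 0 of the 32402 with a symbol. Identifiers stand in for names below, functions are not stated, and tissue and cell type markers could not be examined. The 37 lists of genes prepared for this tissue and treatment, such as immediate early genes, spiny neuron markers and clock genes, were not tested. Promoter sequences could not be matched to the identifiers for the same reason, and none is shown.

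Before the comparison itself, 2 features of the libraries bear on it. Saline 2 stood apart from the other rats. Its correlation with the other Saline rats was 0.919 and 0.922 on the log2 scale across 15555 genes, while Saline 1 and Saline 3 correlated at 0.991 and the cocaine rats among themselves at 0.982 to 0.993. Genes are not independent replicates, so these values are descriptive. The comparisons of the arms are therefore given with all 9 rats and again without Saline 2. The other feature is depth. The cocaine rats had 29654851 to 39067715 counts and the Saline rats 27724289 to 29142265, so that every cocaine library was deeper than every Saline library (exact two-sided permutation test of the means, p = 0.0595, smallest possible p 0.0119, and p = 0.143 without Saline 2, smallest possible p 0.0357). The cocaine rats had on average 368 more genes detected than the Saline rats (exact two-sided permutation p = 0.0357), and 119.7 more without Saline 2 (exact permutation p = 0.143). With every library thinned at random to the lowest total the difference was 186 genes (exact permutation p = 0.369), and without Saline 2 it was -68.7 genes (exact permutation p = 0.321).

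With all 9 rats no gene passed the test for cocaine against Saline. A separation of whole transcriptomes by arm did not pass a test either. The split by exposure took up 13.8% of the squared distances between rats on the log2 scale (pseudo-F 1.12, exact one-sided permutation p = 0.333). Without Saline 2 it took up 14.4% (pseudo-F 1.01, exact permutation p = 0.393, smallest possible p 0.0357). Any split of the rats takes up some share, so neither percentage by itself shows an effect of exposure. Differences in single genes were mostly small. The unit CPM gives a gene's counts relative to the TMM-scaled library size. Fold differences here are edgeR's fitted log2 differences, with the mean of both cocaine groups set against Saline. Of 13767 genes averaging 1 CPM or more, 98.1% differed by at most 1.5-fold. In cocaine rats 9 were over 2-fold higher and 24 over 2-fold lower. Over 1.5-fold, 99 were higher and 161 lower. Without Saline 2 the balance turned, with 42 genes over 2-fold higher and 12 lower, and 129 over 1.5-fold higher and 86 lower. The 95% interval of the difference with all rats lay wholly within 2-fold for 11166 of 13767 genes (81.1%) and within 1.5-fold for 6068 (44.1%). Without Saline 2 it lay within 2-fold for 13129 of 13769 genes (95.4%) and within 1.5-fold for 11185 (81.2%). The intervals assume one spread for the 3 groups, while Saline 2 stood far from the other Saline rats.

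edgeR's quasi-likelihood test called 0 of 15555 genes (0%) at an adjusted p below 0.05, with a smallest adjusted p of 0.825 and 193 genes (1.24%) at an unadjusted p below 0.05. DESeq2 called 0 of 22389 genes (0% in either direction), and 294 (1.31%) had an unadjusted p under 0.05. With sample quality weights limma-voom called 0, and 1410 genes (9.065%) were under that unadjusted threshold. In the limma-voom fit Saline 2 received a weight of 0.0300, beside 0.742 to 2.96 for the other rats. Without Saline 2, edgeR again called 0 of 15750 genes (0%), with 0.699 as the smallest adjusted p. An unadjusted p under 0.05 was found for 1055 genes (6.70%), 363 higher and 692 lower in cocaine rats. limma-voom then called 0, with 1675 (10.6%) under the unadjusted threshold, and DESeq2 called 19 genes, which are described further on. The count of genes at an unadjusted edgeR p below 0.05 also moved with other rats. It was 899 of 15755 tested genes without Saline 1, 1324 of 15770 without Saline 3 and 126 of 15746 without nCPPE 1. With Saline 2 already left out, it was 519 without Saline 1 and 624 without Saline 3.

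Genes counted as moved the same way in both cocaine groups were those in which all 6 cocaine rats lay on one side of every Saline rat. With all 9 rats this held for 160 of the 15555 tested genes (1.03%). In 86 of them (0.553% of the tested genes) every cocaine rat was higher, and in 74 (0.476%) every cocaine rat was lower. There are 84 ways to choose 6 of 9 rats, so interchangeable rats would meet each direction in a fraction of 0.0119. Both shares were below that, and the count by itself does not show genes moved by cocaine. Genes are not independent, so this comparison is no test. With plain library totals in place of TMM scaling the split was 108 higher and 54 lower, and with libraries thinned to one total it was 82 and 82. Taken alone, CPPE rats did not overlap with Saline rats in 890 genes (5.72%) and nCPPE rats in 626 (4.02%), and without Saline 2 in 3978 (25.3%) and 3904 (24.8%). Fewer rats were compared here, so the condition was easier to meet and the fraction of 0.0119 does not apply. By themselves these counts do not show genes moved by cocaine either. The comparisons of the single groups share the Saline rats, and the 160 genes are those in which both groups lay on the same side.

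The differences in these 160 genes were modest. The genes higher in cocaine rats had a median log2 difference of 0.36, 23 of them were over 1.5-fold higher, 8 over 2-fold and 1 over 4-fold. The genes lower in cocaine rats had a median of -0.41, with 21 over 1.5-fold and 4 over 2-fold lower. Over all tested genes the median absolute difference was 0.18, but the rule for these genes favours large differences, so their medians are a description. The median log2 difference was 0.39 in CPPE and 0.35 in nCPPE rats for the higher genes, and -0.38 and -0.42 for the lower ones. For none of the 160 genes did edgeR's contrast of CPPE with nCPPE give an unadjusted p below 0.05, although requiring all 6 rats on one side leaves little room for such a gap. Among the genes without overlap once Saline 2 was left out, 17 higher and 25 lower genes had such a p, and 0 passed after adjustment.

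Of the genes without overlap and with a mean of 1 CPM or more, ENSRNOG00000008118 had the smallest edgeR p. The Saline rats had 2.87, 1.61 and 2.12 CPM, the CPPE rats 6.09, 4.92 and 6.22 CPM, and the nCPPE rats 4.26, 5.15 and 8.90 CPM. The lowest cocaine rat, nCPPE 1, was above the highest Saline rat, and nCPPE 3 was the highest of all. The log2 difference was 1.42 ± 0.29 (SE) with all 9 rats and 1.24 ± 0.29 without Saline 2, and the log2 difference between CPPE and nCPPE was -0.09 ± 0.31. Saline 2 had the lowest level, on the side of the other Saline rats. Its edgeR adjusted p was 0.825 with all rats and 0.699 without Saline 2. DESeq2 gave it an adjusted p of 0.0509 with all rats, 0.0425 when only the genes kept by edgeR's filter were tested, and 0.0304 without Saline 2. Over its 19 alternatives the adjusted p ran from 0.0425 to 0.928.

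ENSRNOG00000046195 was also higher in every cocaine rat. Its level was 1.21, 1.33 and 1.48 CPM in the Saline rats, 1.84, 2.51 and 2.51 CPM in the CPPE rats and 2.03, 2.17 and 2.04 CPM in the nCPPE rats. The highest Saline rat, Saline 3, was below the lowest cocaine rat, CPPE 1. The log2 difference was 0.70 ± 0.19 (SE) with all rats and 0.70 ± 0.22 without Saline 2, with edgeR adjusted p of 0.825 and 0.699. These levels rest on 35 to 99 counts per rat.

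ENSRNOG00000018426 was lower in every cocaine rat. The Saline rats had 17.8, 19.3 and 12.5 CPM, the CPPE rats 10.4, 8.22 and 11.3 CPM, and the nCPPE rats 11.2, 9.15 and 9.60 CPM. Saline 3 lay close to the highest cocaine rat, while Saline 1 and Saline 2 were well above it. The means of CPPE and nCPPE were 9.99 CPM in each. The log2 difference between the arms was -0.73 ± 0.17 (SE), and -0.60 ± 0.16 without Saline 2, with edgeR adjusted p of 0.825 and 0.699.

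ENSRNOG00000030530 had 2.25, 2.90 and 2.30 CPM in the Saline rats, 1.32, 1.22 and 1.21 CPM in the CPPE rats and 1.43, 2.11 and 1.75 CPM in the nCPPE rats. All cocaine rats were below all Saline rats, with nCPPE 2 just under Saline 1. The log2 difference was -0.99 ± 0.23 (SE) in CPPE and -0.49 ± 0.22 in nCPPE rats, side by side with the same Saline rats. The difference between CPPE and nCPPE was -0.50 ± 0.23 (edgeR adjusted p = 1.0). Pooled, the log2 difference was -0.74 ± 0.19 with all rats and -0.62 ± 0.20 without Saline 2 (edgeR adjusted p 0.825 and 0.699).

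**Figure D1:**
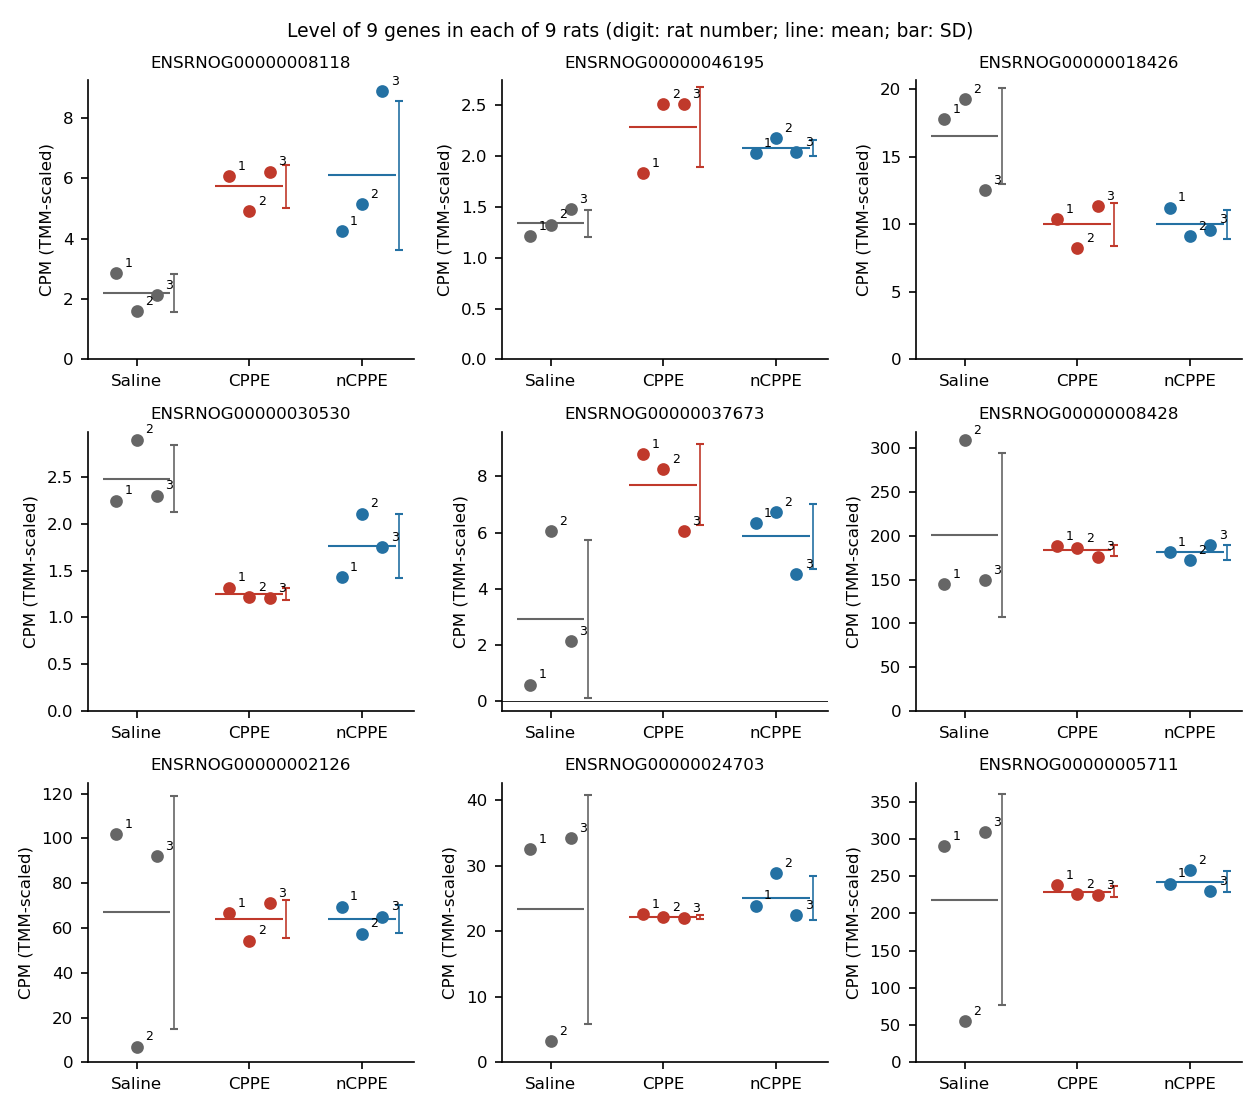
Level of the 9 genes named in the text in each rat, as CPM with TMM-scaled library sizes, all 9 rats scaled together. Points are rats with their number, lines are means of 3 rats and bars are SD. In the first 4 panels the Saline rats lie on one side of all cocaine rats, and in the last 5 Saline 2 lies away from Saline 1 and Saline 3.

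With all rats, no gene with more than 5 counts in any rat was read in every rat of one arm and in none of the other. There were 14 genes with 0 counts in all Saline rats and at least 1 in each cocaine rat, and none of them had more than 5 counts in any rat. In the other direction 2 genes had 0 counts in all cocaine rats and at least 1 in each Saline rat, with at most 3 counts. Without Saline 2 these numbers were 26 genes, with at most 26 counts, and 22 genes, with at most 3. Counts of a few reads cannot show a difference at this depth, and the cocaine libraries were the deeper ones.

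Leaving out Saline 2 raised the number of genes without overlap to 1789 of 15750, with 820 (5.21% of the tested genes) higher and 969 (6.15%) lower in every cocaine rat. With plain library totals the larger share turned, to 849 higher and 787 lower. With fewer Saline rats the condition is easier to meet, and the number also rose to 691 without Saline 1 and to 894 without Saline 3. There are 28 ways to choose 6 of 8 rats, so interchangeable rats would meet each direction in a fraction of 0.0357. Both shares without Saline 2 were above that. They were below it without Saline 1 (386 higher and 305 lower of 15755) and without Saline 3 (470 and 424 of 15770). Genes are not independent, so this is no test either. Leaving out a cocaine rat gave 209 genes (without nCPPE 1) to 394 (without nCPPE 2), with 255 without CPPE 1, 246 without CPPE 2 and 246 without nCPPE 3. The genes without overlap once Saline 2 was left out differed little between the arms, by a median log2 difference of 0.17 for the higher and -0.24 for the lower genes. Of these, 86 higher and 101 lower genes were over 1.5-fold. With 1 Saline rat left, 4715 genes (29.3%, without Saline 1 as well) and 4623 (28.7%, without Saline 3 as well) met the condition. A single rat falls outside the range of 6 others easily, so these counts say little about cocaine.

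**Figure D2:**
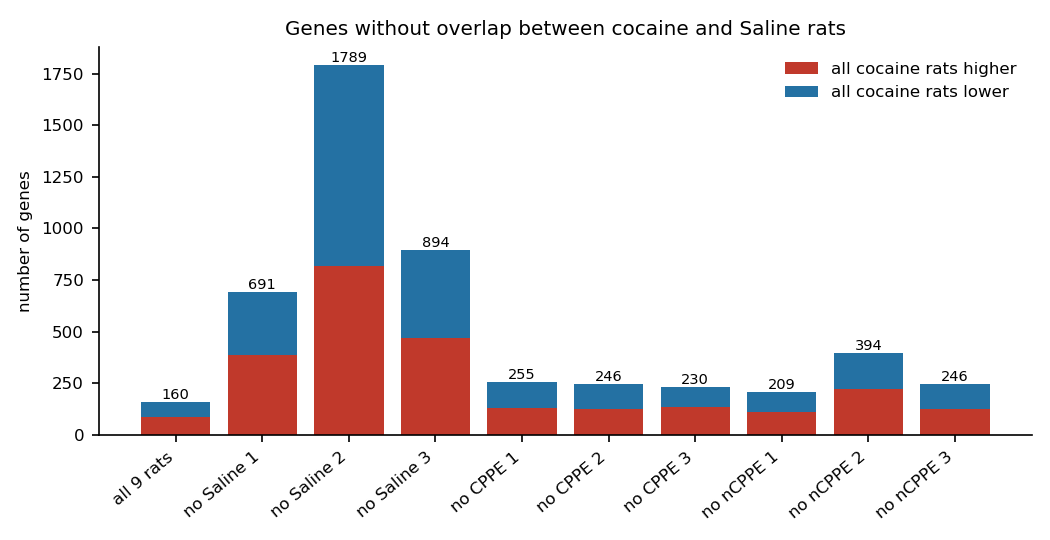
Number of genes in which all cocaine rats lie above (lower part of each bar) or below (upper part) every Saline rat, with all 9 rats and with each rat left out in turn. The 160 genes with all rats (1.03% of those tested) become 1789 (11.4%) without Saline 2, 691 (4.39%) without Saline 1 and 894 (5.67%) without Saline 3. Without a cocaine rat they become 209 (1.33%) to 394 (2.5%).

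Saline 2 was not on the side of the other Saline rats in most of the genes that set Saline 1 and Saline 3 apart from cocaine rats. All rats were scaled together for this description, genes were chosen on 2 Saline rats, and the position of the third was then read. Among 803 genes in which every cocaine rat was above Saline 1 and Saline 3, Saline 2 was also below every cocaine rat in 10.7%, inside the cocaine range in 11.1% and above every cocaine rat in 78.2%. Among 963 genes in which every cocaine rat was below Saline 1 and Saline 3, Saline 2 was also above them in 7.68% and below every cocaine rat in 85.6%. Over all tested genes Saline 2 was above every cocaine rat in 39.3% and below in 40.2%. In 78.2% and 85.6% of the chosen genes the cocaine rats thus lay between Saline 2 on one side and Saline 1 and Saline 3 on the other.

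The other Saline rats gave another picture when left out in the same way. Saline 1 lay on the side of Saline 2 and Saline 3 in 24.4% of 353 higher and 24.0% of 308 lower genes, beside 13.6% and 15.1% of all tested genes. It was beyond the cocaine rats on the opposite side in 14.7% and 11.4%, beside 15.1% and 13.6% of all tested genes. Saline 3 lay with Saline 1 and Saline 2 in 18.7% of 461 higher and 17.8% of 416 lower genes, beside 14.5% and 14.8% of all genes. Saline 3 was beyond the cocaine rats in 12.1% and 16.6%, beside 14.8% and 14.5% of all genes. These shares are descriptions without a test. What set Saline 2 opposite the other Saline rats in these genes was not tested.

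**Figure D3:**
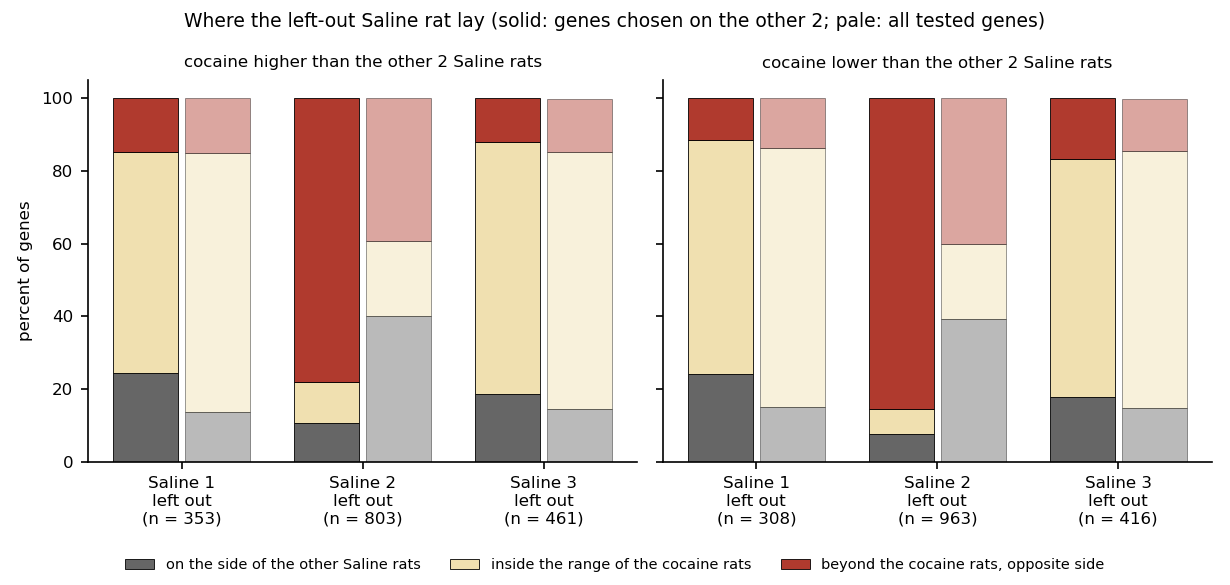
Position of the left-out Saline rat relative to the 6 cocaine rats, as percent of genes. Solid bars are genes in which all cocaine rats lie above (left) or below (right) the 2 Saline rats kept, with their number under each bar, and pale bars are all 15555 tested genes. Saline 2 is beyond the cocaine rats on the opposite side in 78.2% and 85.6% of the chosen genes. Saline 1 and Saline 3 are mostly inside the cocaine range, as they are in 71.3% and 70.6% of all tested genes.

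Among the genes that DESeq2 called without Saline 2, all the lower ones and 3 of the 6 higher ones had Saline 2 opposite the other Saline rats. Of 12578 genes given an adjusted p, 6 (0.0477%) were higher and 13 (0.103%) lower in cocaine rats, and in all 19 the cocaine rats did not overlap with Saline 1 and Saline 3. The 13 lower genes differed by 0.251 to 0.747 on the log2 scale, and in each of them Saline 2 was below every cocaine rat, at 0.101 to 0.841 times their mean. Of the 6 higher genes, Saline 2 was above every cocaine rat in 3, inside their range in 1 and with the other Saline rats in 2. edgeR called none of the 19, although all had an unadjusted edgeR p below 0.05. When DESeq2 was given only the genes kept by edgeR's filter it called 27 genes, 6 higher and 21 lower, 16 of them shared with the 19.

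For these genes CPM of Saline 2 come from scaling all 9 rats, and those of the other rats from scaling without it. ENSRNOG00000037673 had the largest difference of the DESeq2 calls. Saline 1 had 17 counts and Saline 3 had 59, while the CPPE rats had 273, 325 and 186 and the nCPPE rats 213, 210 and 142. Saline 2 had 169 counts, within the range of the cocaine rats. On the CPM scale, cocaine rats averaged 6.82 ± 1.56 (SD, n = 6) and the Saline rats other than Saline 2 had 0.591 and 2.14 CPM. The log2 difference was 2.31 ± 0.40 (SE) without Saline 2 and 1.20 ± 0.57 with all rats. DESeq2 gave an adjusted p of 7.928e-07 without Saline 2 and 0.987 with all rats. edgeR's adjusted p was 0.699 and 0.825. With only Saline 3 as control the log2 difference was 1.66, and with only Saline 1 it was 3.51. Its adjusted p ran from 7.928e-07 to 0.996 over 17 alternatives without Saline 2, and DESeq2 on edgeR's filtered genes gave it none.

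ENSRNOG00000008428 was an abundant gene with a small, tight difference once Saline 2 was left out. Saline 1 and Saline 3 had 145 and 150 CPM, the CPPE rats 189, 187 and 177 CPM and the nCPPE rats 183, 174 and 190 CPM. Scaled with the other 8, Saline 2 had 309 CPM, above all of them. The log2 difference was 0.31 ± 0.06 (SE) without Saline 2 and -0.14 ± 0.23 with all rats, so that its sign depended on this rat. The DESeq2 adjusted p was 0.00820 without Saline 2 and 0.987 with all rats, and that of edgeR 0.699 and 0.852. The range of the adjusted p over its 18 alternatives without Saline 2 was 0.00537 to 0.997.

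ENSRNOG00000002126 had the smallest edgeR p among genes without overlap that were lower in cocaine rats once Saline 2 was left out. Saline 1 and Saline 3 had 102 and 92.4 CPM, the CPPE rats 66.8, 54.7 and 71.2 CPM and the nCPPE rats 69.9, 58.0 and 65.2 CPM. Saline 2 had 7.06 CPM, far below every other rat. The log2 difference was -0.60 ± 0.10 (SE) without Saline 2, the same in CPPE and nCPPE rats at -0.60 each, and -0.07 ± 0.60 with all rats. edgeR's adjusted p was 0.699 and 0.971, and that of DESeq2 0.00170 and 0.987. Over 18 alternatives without Saline 2 the adjusted p ran from 0.00170 to 0.997.

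ENSRNOG00000024703 and ENSRNOG00000005711 showed the same arrangement of rats. ENSRNOG00000024703 had 32.7 and 34.4 CPM in Saline 1 and Saline 3, and in the cocaine rats 22.7, 22.3 and 22.1 CPM (CPPE) and 24.1, 29.1 and 22.6 CPM (nCPPE). Its level in Saline 2 was 3.26 CPM, and its log2 difference was -0.50 ± 0.09 (SE) without that rat and 0.02 ± 0.55 with it. ENSRNOG00000005711 had 292 and 311 CPM in Saline 1 and Saline 3, 239, 227 and 225 CPM in the CPPE rats and 242, 261 and 230 CPM in the nCPPE rats. In Saline 2 it was at 55.9 CPM, and the log2 difference was -0.35 ± 0.07 without that rat and 0.11 ± 0.43 with it. The sign of both genes thus turned with Saline 2. Without it their adjusted p was 0.699 by edgeR, and 0.0240 and 0.00597 by DESeq2, with ranges over 18 alternatives each of 0.0230 to 0.997 and 0.00448 to 0.997.

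**Figure D4:**
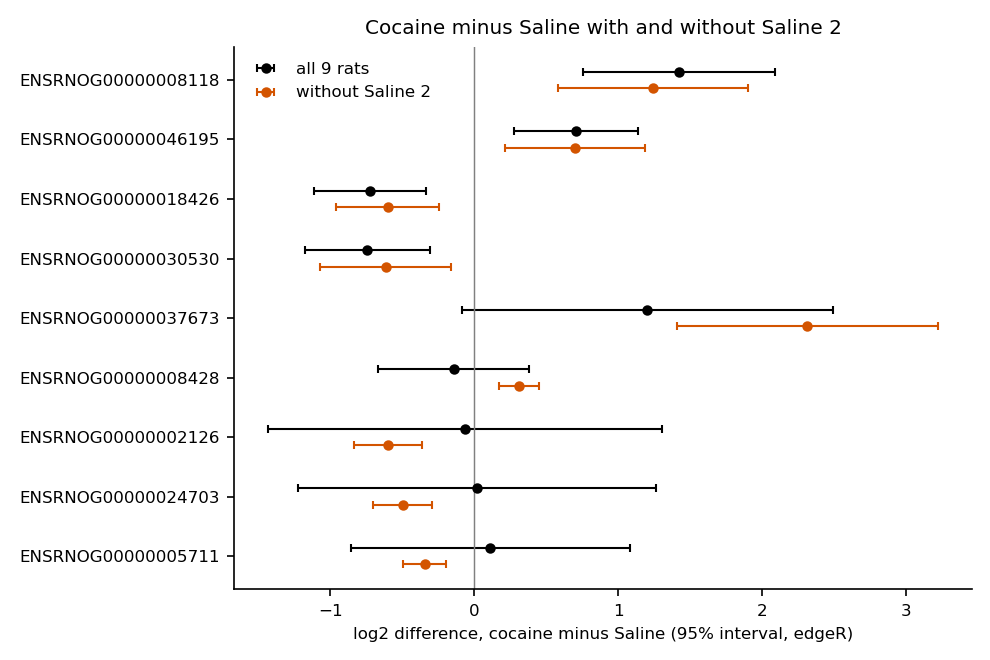
Log2 difference of cocaine minus Saline rats for the 9 named genes, with 95% intervals from the edgeR fit to all 9 rats (black) and without Saline 2 (orange). The genes were chosen by their p in one of the fits, so an interval clear of 0 is no test. The first 4 genes were chosen with Saline 2 included, which fixes their direction in both fits (1.42 and 1.24 for the first), and the other 5 were chosen without it, so the contrast between these sets follows from the choice.

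No gene was named from both fits, which took only the first 2 in each direction by edgeR p or DESeq2 call. ENSRNOG00000008118, named from the fit to all rats, was also among the 19 DESeq2 calls without Saline 2 (DESeq2 adjusted p 0.0304). The 4 genes named from the fit to all rats were chosen for having every cocaine rat on one side of all 3 Saline rats, which fixes their direction without Saline 2. The 5 genes named from the fit without Saline 2 overlapped between the arms once Saline 2 was included. The contrast of CPPE with nCPPE called none of the 9 genes in either edgeR fit (adjusted p at least 0.971).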

How the data were processed

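RNA-seq libraries of polyadenylated RNA (300 ng of total RNA, TruSeq Stranded mRNA, per the labels' protocols) were sequenced, and the authors deposited unnormalized whole-number counts by Ensembl identifier, 1 file for each technical replicate. The tools named in the submitters' processing notes are HTSeq 0.5.3, STAR and bcl2fastq 2.18.0.12. Build, annotation and strand setting were not given in the sources used here, so counts of overlapping, antisense or near-identical genes are uncertain.

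Technical replicates agreed within counting noise (chi-square per degree of freedom 1.00 to 1.02 in every rat) and were summed, so each rat counted as 1 sample. Nothing in the labels pairs rats or gives a batch. Counts were filtered (filterByExpr), scaled by TMM and tested with edgeR 4.0.16 in R 4.3.3 (glmQLFit, glmQLFTest) over Saline, CPPE and nCPPE, with the mean of both cocaine groups set against Saline and Benjamini-Hochberg adjustment over all tested genes. SE and intervals came from the same fits. DESeq2 1.42.0, limma 3.58.1, other scalings, filters and models, each rat left out, and libraries thinned to equal totals were alternatives. Scripts were first tested on simulated counts.

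The rule for naming genes took, per fit, the 2 in each direction with a mean of at least 1 CPM, no overlap and the smallest edgeR p, and the first 2 DESeq2 calls in each direction. Members, lists and rules were chosen with earlier results of these data known.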

Additional observations from a re-analysis of the deposited data

Results flagged for a closer look

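In the cocaine arm, 12 measures were screened for a single rat lying far out (the 9 named genes, library total, genes detected and the share of the 10 most abundant genes). By chance about 1 in 20 such groups would show one. ENSRNOG00000024703 stood at 29.1 CPM in nCPPE 2, against 22.1 to 24.1 CPM in the remaining 5 cocaine rats, a gap of 0.719 of the full range. This rat lay nearer to Saline 1 and Saline 3, at 32.7 and 34.4 CPM.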

How the results depend on the processing

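The edgeR test called 0 genes with all rats and 0 without Saline 2 under every scaling, filter, model and left-out rat tried. Calls came only from DESeq2, and the cause of this was not tested. It called 19 genes without Saline 2. On the genes kept by edgeR's filter, an alternative chosen after the data were seen like the thinning of libraries, it called 1 with all rats and 27 without Saline 2. The 160 genes without overlap (1.03% of those tested) became 209 (1.33%) to 1789 (11.4%) with 1 rat left out. The 1789 without Saline 2 became 2094 (13.3%) to 4715 (29.3%) with 1 more left out. Fewer rats make the condition easier to meet. Thinning gave 164 (1.06%) and 1754 (11.2%). Where 1 Saline rat was left, edgeR assumed it to vary like the other groups. None of the 9 named genes reversed within its own fit in 166 alternatives. All 9 had no overlap between the arms in that fit, which leaves little room for a reversal, so this is no sign of robustness. Of the 166 alternatives, 10 passed the threshold, all by DESeq2.

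Rats share numbers between groups, but the labels do not say that a number pairs them. Deviations of same-numbered rats correlated at -0.447 to 0.257, and 2 of 9 rats correlated best with their own number. Without Saline 2 these correlations were -0.433 to 0.0566, and 0 of 8 rats correlated best with their own number. With the number as a replicate block edgeR called 0 genes in both fits, and genes at an unadjusted p below 0.05 went from 193 to 162 with all rats and from 1055 to 629 without Saline 2.

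With 3 Saline rats, 1 of them apart, the data do not settle small differences. Levels of a few counts per rat carry no comparison.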
